A study of Homo sapiens with 12 samples.

Results

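Integrins and matrix metalloproteinases were measured in U87 cells, a human glioblastoma line, on 12 Affymetrix Human Gene 1.0 ST arrays. The set holds the 47 genes of these families that have a transcript cluster (the set of probes that summarises a gene) annotated with their symbol alone, out of 18417 genes with a cluster of their own: 17 integrin alpha chains, 8 integrin beta chains and 22 metalloproteinases. They were chosen by symbol only, with pseudogenes left out and, where a gene had several clusters, the one with the highest mean over the 12 arrays, which concerned MMP16 alone. Cells were kept for 24 h in phenol red-free medium with charcoal-stripped serum and then received vehicle (V, DMSO), 3α-THP (allopregnanolone, 10 nM), P4 (progesterone, 10 nM) or F (finasteride, 100 nM) for 72 h, with 3 arrays per treatment, which the design calls independent experiments. The DMSO content of the vehicle is given as 0.1% in the sample characteristics and as 10% in the treatment protocol. All 4 groups are the same single line in the same stripped serum, so the values describe that line only. In cells 5α-reductase and then a hydroxysteroid dehydrogenase form 3α-THP from P4, and F inhibits 5α-reductase. Changes in bulk RNA do not tell apart less RNA per cell from fewer cells that express a gene.

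Integrins are pairs of an alpha and a beta chain in the cell membrane that bind proteins of the extracellular matrix outside and, through adaptor proteins, the actin cytoskeleton inside. Matrix metalloproteinases are zinc-dependent endopeptidases that cut matrix proteins and other proteins at the cell surface. Most are secreted as inactive precursors, while the membrane-type enzymes are anchored to the cell. In glioma both families are known for their part in adhesion to and invasion through brain tissue.

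A level is the deposited log2 value of a cluster. Levels of different genes come from different probes and were not set against each other. A gene was called dim where its mean over the 12 arrays was at or under 5.27, the 95th percentile of 360 olfactory receptor clusters, which stand here for genes that U87 cells hardly use. By this limit 29 of the 47 genes lay above and 18 were dim. The share of dim clusters among all tested clusters is not given here. The median of their means was 6.37, so most of them lay above the limit as well. The count therefore does not set these families apart from other genes. Levels of VIM, CD44, CHI3L1, TNC and the other markers of mesenchymal glioma lines lay above the limit for 9 of 9 measured markers. Of 8 astrocyte and neural markers 4 lay above it, GFAP, SLC1A3, SLC1A2 and OLIG2, with means of 6.17, 9.47, 5.59 and 5.58. The other 4, AQP4, ALDH1L1, S100B and SOX2, were dim. Of 7 fibroblast markers 5 lay above the limit, PDGFRB, DCN, LUM, COL1A1 and FAP, while PDGFRA and THY1 were dim. Above it were also 2 of 7 endothelial markers (KDR and CLDN5) and 1 of 5 measured platelet markers (TREML1).

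The sequence before the start site is described here for the dim genes and the others. RefSeq promoters (GRCh38.p14) were at hand for 27 of the 47 genes, in 32 windows of the 250 bases before an annotated start. ITGA3, ITGA7, ITGA9, ITGAD, ITGAL, ITGAX, ITGB2, ITGB3, ITGB4, MMP1, MMP2, MMP3, MMP9, MMP12, MMP13, MMP16, MMP17, MMP19, MMP25 and MMP28 had no entry. The 12 windows of 12 dim genes had a median GC content of 40.2% and a median of 2 CpG dinucleotides. Those of the 15 genes above the limit, 20 windows, had 71.0% and 20, beside 58.0% and 11 for all 35116 windows of 27305 genes. TATAAA, the TATA box, stood on the sense strand in 6 of 12 windows of dim genes (50.0%), in 1 of 20 windows of the other members (5.0%) and in 6.8% of all windows. The 6 dim genes with it were MMP7, MMP8, MMP10, MMP20, MMP21 and MMP26. All 6 are metalloproteinases: TATAAA stood in 6 of 7 windows of dim metalloproteinases and in 0 of 4 of those above the limit, but in 0 of 5 windows of dim integrins and in 1 of 16 of the other integrins. The split thus lies within the metalloproteinases and was not seen between dim and other integrins. Of these dim metalloproteinases MMP7, MMP8, MMP10, MMP20 and MMP27 neighbour each other on chromosome 11, and all of them but MMP27 had TATAAA. MMP21 and MMP26, which lie elsewhere, had it too. The windows above the limit, those of MMP11, MMP14, MMP15 and MMP24, are on other chromosomes. The part of this shared location in the split was not tested. A GC box (GGGCGG, or CCGCCC as its other strand) was found in 2 of 12 windows of dim genes (16.7%), in 11 of 20 windows of the others (55.0%) and in 42.6% of all. Among the metalloproteinases it was in 0 of 7 windows of dim genes and 4 of 4 of the others, and among the integrins in 2 of 5 (40.0%) and 7 of 16 (43.8%). The AP-1 site TGAGTCA, with its other strand TGACTCA, stood in 1 member window, that of MMP7, against 4.2% of all windows, and the cAMP response element TGACGTCA in 0 member windows, against 1.65%. The matches in the windows printed here do not overlap each other. These are matches of letters and no measure of binding. Among the metalloproteinases the GC content and CpG count moved with the motif counts. Their medians were 36.4% and 2 in windows of dim genes and 74.0% and 23.5 in the others. Among the integrins these medians differed as well, at 48.8% and 2 against 70.4% and 18.5, while the GC box shares were close.

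Windows of 2 dim metalloproteinases and of 2 members above the limit, the integrin gene ITGA5 and the metalloproteinase gene MMP14, are shown as examples. Motif matches are in capitals and the start site is right after the last base. MMP7 lies on the minus strand at chr11:102530748-102530997, with an AP-1 match at bases 67 to 61 before the start and a TATA box at bases 30 to 25. MMP10 is on the minus strand at chr11:102780629-102780878, with a TATA box at bases 31 to 26. ITGA5 is on the minus strand at chr12:54419267-54419516, with a GC box match at bases 210 to 205. MMP14 is on the plus strand at chr14:22836335-22836584, with a GC box at bases 66 to 61. Their GC content was 33.6%, 34.4%, 70.0% and 56.8% in this order.
MMP7: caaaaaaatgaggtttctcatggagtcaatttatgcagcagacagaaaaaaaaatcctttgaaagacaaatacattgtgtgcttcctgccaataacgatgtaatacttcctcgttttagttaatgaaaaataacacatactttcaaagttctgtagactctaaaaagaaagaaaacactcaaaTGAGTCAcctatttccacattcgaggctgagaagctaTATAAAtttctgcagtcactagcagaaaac
MMP10: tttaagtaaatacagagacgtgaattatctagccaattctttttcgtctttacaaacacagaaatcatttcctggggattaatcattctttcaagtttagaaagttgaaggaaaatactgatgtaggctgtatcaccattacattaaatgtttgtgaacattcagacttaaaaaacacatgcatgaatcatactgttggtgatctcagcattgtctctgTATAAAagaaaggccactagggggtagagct
ITGA5: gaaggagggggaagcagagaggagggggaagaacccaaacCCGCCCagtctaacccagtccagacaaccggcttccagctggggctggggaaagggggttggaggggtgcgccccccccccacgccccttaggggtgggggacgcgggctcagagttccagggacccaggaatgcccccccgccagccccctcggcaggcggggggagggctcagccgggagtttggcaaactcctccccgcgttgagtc
MMP14: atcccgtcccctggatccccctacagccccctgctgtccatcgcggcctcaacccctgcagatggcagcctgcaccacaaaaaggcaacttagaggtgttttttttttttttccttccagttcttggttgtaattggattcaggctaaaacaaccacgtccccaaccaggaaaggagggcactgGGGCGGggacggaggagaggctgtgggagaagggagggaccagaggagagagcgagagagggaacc

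Of the 17 alpha chains 11 were above the limit, among them chains of receptors for vitronectin, fibronectin, laminins and collagens. ITGAV (αv), the partner of several beta chains in receptors for vitronectin and other RGD proteins, had levels of 11.17, 11.02 and 11.02 in V, 11.11, 10.93 and 11.20 with 3α-THP, 11.21, 10.91 and 11.19 with P4, and 11.23, 10.97 and 11.26 with F. ITGA5 (α5), which forms the main fibronectin receptor with beta1, had 11.06, 11.12 and 11.28 in V, 10.98, 11.09 and 11.26 with 3α-THP, 11.11, 11.05 and 11.24 with P4, and 11.13, 11.09 and 11.29 with F. For both, the arrays of every treatment overlapped those of V. ITGA3 (α3), a laminin receptor chain, had 10.93, 10.85 and 10.90 in V, 10.82, 10.63 and 10.79 with 3α-THP, 10.92, 10.76 and 10.88 with P4, and 10.85, 10.77 and 10.88 with F. All 3 arrays with 3α-THP lay below all 3 V arrays, with a difference of -0.15 on the log2 scale (SE 0.0808, limma, adjusted p = 0.751). ITGA6 (α6), the other widespread laminin receptor chain, had 6.55, 6.99 and 6.50 in V, 6.47, 7.06 and 6.82 with 3α-THP, 6.76, 6.62 and 6.54 with P4, and 6.52, 6.97 and 6.60 with F, with its highest value on replicate 2 of V, 3α-THP and F. ITGA2 (α2), a collagen receptor chain, had 6.32, 6.27 and 6.43 in V, 6.37, 6.25 and 6.58 with 3α-THP, 6.32, 6.09 and 6.51 with P4, and 6.34, 6.39 and 6.57 with F, which overlapped in all 4 treatments.

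The other 6 alpha chains were dim: ITGA2B, the chain of platelets, ITGA8, ITGA9, ITGA10, and the leukocyte chains ITGAM and ITGAX. ITGA11 and ITGA7 were above the limit, with means in V of 8.43 (SD 0.361, n = 3) and 7.64 (SD 0.210, n = 3). ITGA4 had 5.83 (SD 0.100, n = 3) in V. The leukocyte chains ITGAD, ITGAE and ITGAL lay just above the limit, with means in V of 5.82, 5.55 and 5.32. Of 13 measured leukocyte markers, 7 were dim, including PTPRC (CD45) at 2.95 over the 12 arrays, CD53, CD3D and CD3E, and 6 were above the limit, among them CD68 and LCP1. The mean of all 13 ran from 5.58 to 5.66 on the V arrays, 5.52 to 5.60 with 3α-THP, 5.57 to 5.61 with P4 and 5.56 to 5.59 with F. The part of other cells in the levels of leukocyte chains was not tested.

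Among the 8 beta chains ITGB6, known from epithelia, was the only dim one. Of 6 epithelial markers EPCAM, CDH1 and CLDN4 were dim too, while the keratins KRT8, KRT18 and KRT19 lay above the limit with means of 7.33, 7.22 and 5.97. ITGB1 (β1), the partner of most alpha chains, had levels of 10.38, 10.25 and 10.48 in V, 10.33, 10.33 and 10.57 with 3α-THP, 10.49, 10.26 and 10.51 with P4, and 10.44, 10.42 and 10.60 with F. ITGB3 (β3), which binds vitronectin with αv, had 9.73, 9.77 and 9.79 in V, 9.61, 9.82 and 9.75 with 3α-THP, 9.78, 9.60 and 9.67 with P4, and 9.74, 9.70 and 9.75 with F. Neither separated a treatment from V. ITGB8 (β8), which with αv presents latent TGF-β, had 9.43, 9.26 and 8.95 in V, 9.53, 9.004 and 9.15 with 3α-THP, 9.53, 9.15 and 9.39 with P4, and 9.72, 9.17 and 9.49 with F. Its spread in V was wide (SD 0.240) beside that of ITGB3 (SD 0.0304, both n = 3). ITGB2 and ITGB7 of leukocytes and ITGB4, the partner of α6 in epithelia, had means in V of 5.74, 5.64 and 5.44.

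The metalloproteinases split by class. All 6 membrane-type enzymes (MMP14, MMP15, MMP16, MMP17, MMP24 and MMP25) and both gelatinases (MMP2 and MMP9) were above the limit, whereas 3 of 3 collagenases (MMP1, MMP8 and MMP13) and 2 of 2 matrilysins (MMP7 and MMP26) were dim. Of the stromelysins, MMP11 was above it and MMP3 and MMP10 were dim. MMP24 and MMP25 lay just above the limit, with means in V of 5.39 and 5.46. V replicate 2 of MMP24 was under it, at 5.02. MMP15 and MMP16 had means in V of 5.76 and 5.74. MMP2 (gelatinase A), which cuts type IV collagen, had levels of 13.09, 13.02 and 13.14 in V, 13.09, 12.95 and 13.16 with 3α-THP, 13.15, 13.00 and 13.17 with P4, and 13.13, 13.00 and 13.17 with F. MMP14 (MT1-MMP), which activates the MMP2 precursor at the cell surface, had 10.75, 10.75 and 10.76 in V, 10.52, 10.73 and 10.86 with 3α-THP, 10.68, 10.71 and 10.76 with P4, and 10.66, 10.64 and 10.73 with F. Its V arrays were close together (SD 0.0052, n = 3), and the 3 arrays with F lay just below all of them, at a difference of -0.07. MMP9 (gelatinase B) had 6.91, 6.49 and 7.27 in V, 6.98, 6.38 and 7.31 with 3α-THP, 6.81, 6.69 and 7.06 with P4, and 6.88, 6.35 and 6.97 with F, with the lowest value of each treatment on replicate 2. Of the other enzymes, MMP19 and MMP28 were above the limit and MMP12, MMP20, MMP21 and MMP27 were dim. The 9 metalloproteinase genes that neighbour each other on chromosome 11 in the RefSeq annotation, MMP7, MMP20, MMP27, MMP8, MMP10, MMP1, MMP3, MMP12 and MMP13, were all dim, with means over the 12 arrays from 3.04 to 4.70.

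**Figure D1:**
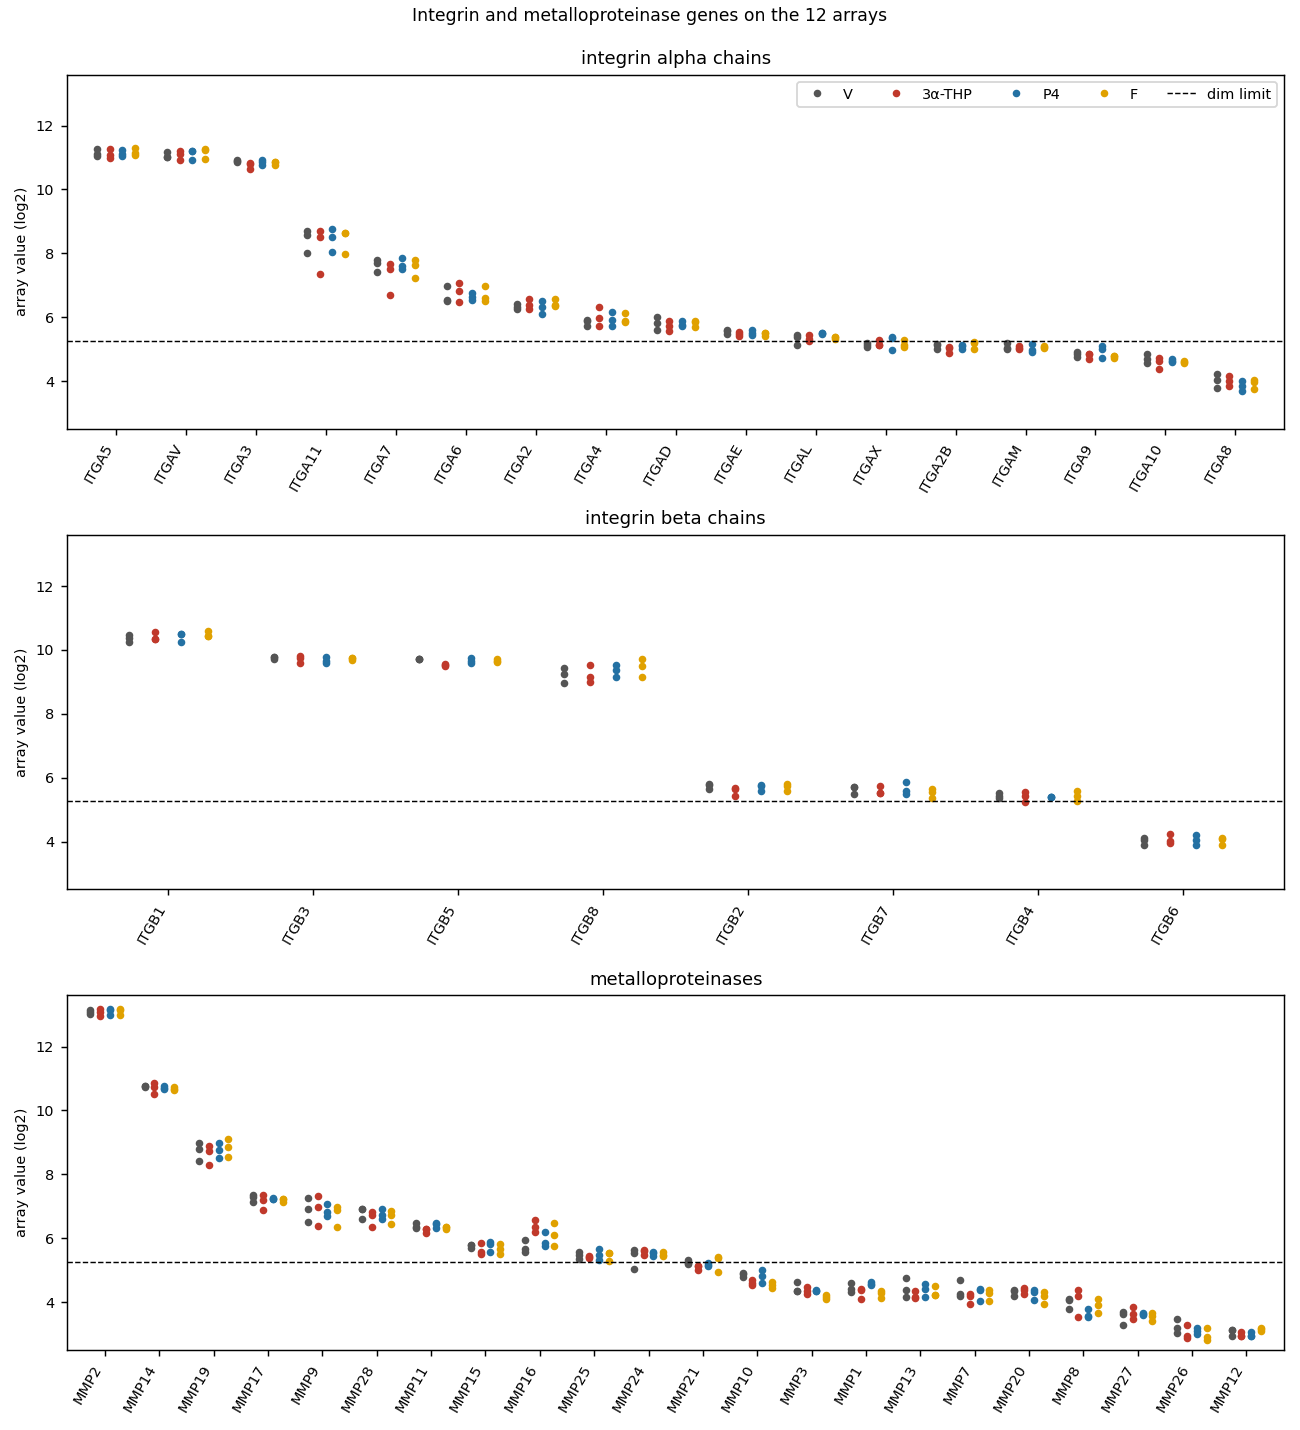
Level (log2 value) of the 47 genes on each of the 12 arrays, with integrin alpha chains, beta chains and metalloproteinases in separate panels, each ordered by the mean in V. Each point is 1 array, coloured by treatment, and the dashed line is the dim limit of 5.27, under which 18 genes have their mean.

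3α-THP was compared with V to see how allopregnanolone alters these genes. A gene counted as changed when it passed the threshold used in the study: a fold above 1.5, up or down, whose p before adjustment was under 0.05. One gene, MMP16, passed it, which is 1 of 47 beside 0.679% of all 21214 tested clusters. MMP16 encodes MT3-MMP, a membrane-type enzyme known from brain and glioma that can activate the MMP2 precursor. Its levels were 5.67, 5.95 and 5.58 in V, 6.35, 6.20 and 6.57 with 3α-THP, 5.74, 5.84 and 6.18 with P4, and 6.11, 5.76 and 6.48 with F. All 3 arrays with 3α-THP lay above all 3 V arrays, whereas those with P4 and F overlapped V. With 3α-THP its level rose by 0.64 (log2; SE 0.175, 95% interval 0.26 to 1.02), a fold of 1.56, which did not pass the adjustment over all clusters (limma, adjusted p = 0.424). The change fell under the fold of 1.5 without V replicate 3 (0.56) or without 3α-THP replicate 3 (0.54). A second cluster of MMP16 had 5.58, 6.26 and 5.67 in V, 6.09, 5.88 and 6.32 with 3α-THP, 5.43, 5.21 and 6.20 with P4, and 6.17, 5.42 and 6.40 with F. Its groups overlapped, with a difference of 0.26 (SE 0.282, limma adjusted p = 0.905) between 3α-THP and V, and the mean of both clusters differed by 0.45, below the fold of 1.5.

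No other member passed the threshold with 3α-THP. Of the 47, 15 had positive and 32 negative differences (31.9% positive, beside 41.1% of all tested clusters), with a median of -0.05 beside -0.03 for all. At an unadjusted p under 0.05 stood 3 members, beside 7.34% of all clusters: MMP16, ITGB5 and MMP10. With the replicate number as a block there were 6, beside 13.4% of all clusters, the additional ones being ITGA7 (-0.34), MMP7 (-0.25) and MMP28 (-0.18), all lower with 3α-THP. The lowest adjusted p of a member was that of MMP16, and 0 members were under 0.05 with limma (0.00471% of all clusters) and with the methods' analysis of variance. That analysis of variance gave 5 members at an unadjusted p under 0.05. Its share over all clusters was not counted, so this 5 has no background beside it. ITGB5 (β5), the vitronectin-binding partner of αv, had levels of 9.72, 9.70 and 9.71 in V, 9.53, 9.56 and 9.50 with 3α-THP, 9.74, 9.64 and 9.58 with P4, and 9.65, 9.72 and 9.63 with F. The V arrays were close together (SD 0.0094, n = 3) and all 3 arrays with 3α-THP lay below them. Its difference was -0.18 (SE 0.0731, 95% interval -0.34 to -0.02, limma adjusted p = 0.617), a fold of 0.881. MMP10 (stromelysin-2), one of the dim genes, had 4.90, 4.87 and 4.79 in V, 4.54, 4.70 and 4.61 with 3α-THP, 5.00, 4.82 and 4.59 with P4, and 4.61, 4.45 and 4.53 with F. Here too the arrays with 3α-THP did not overlap V, with a difference of -0.24 (SE 0.102, limma adjusted p = 0.638). In all, the arrays with 3α-THP did not overlap V for 6 members, beside 11.3% of all clusters: MMP16 lay higher (4.02% of all clusters did), and ITGA3, ITGB5, MMP10, MMP11 and MMP21 lower (7.28%).

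The intervals bound what these arrays could miss. With 3α-THP the 95% interval of 44 of the 47 members lay within a fold of 1.5 in either direction, the others being ITGA7, ITGA11 and MMP16. All intervals given come from the fit without the replicate block. With the block 45 members lay within that fold with 3α-THP, 46 with P4, 46 with F and 44 between 3α-THP and P4. The 12 members of the list of well-known genes that lay above the dim limit, ITGAV, ITGA2, ITGA3, ITGA5, ITGA6, ITGB1, ITGB3, ITGB5, ITGB8, MMP2, MMP9 and MMP14, differed from V by -0.18 (ITGB5) to 0.10 (ITGA6), with intervals that together ran from -0.53 to 0.53, both ends being those of MMP9.

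**Figure D2:**
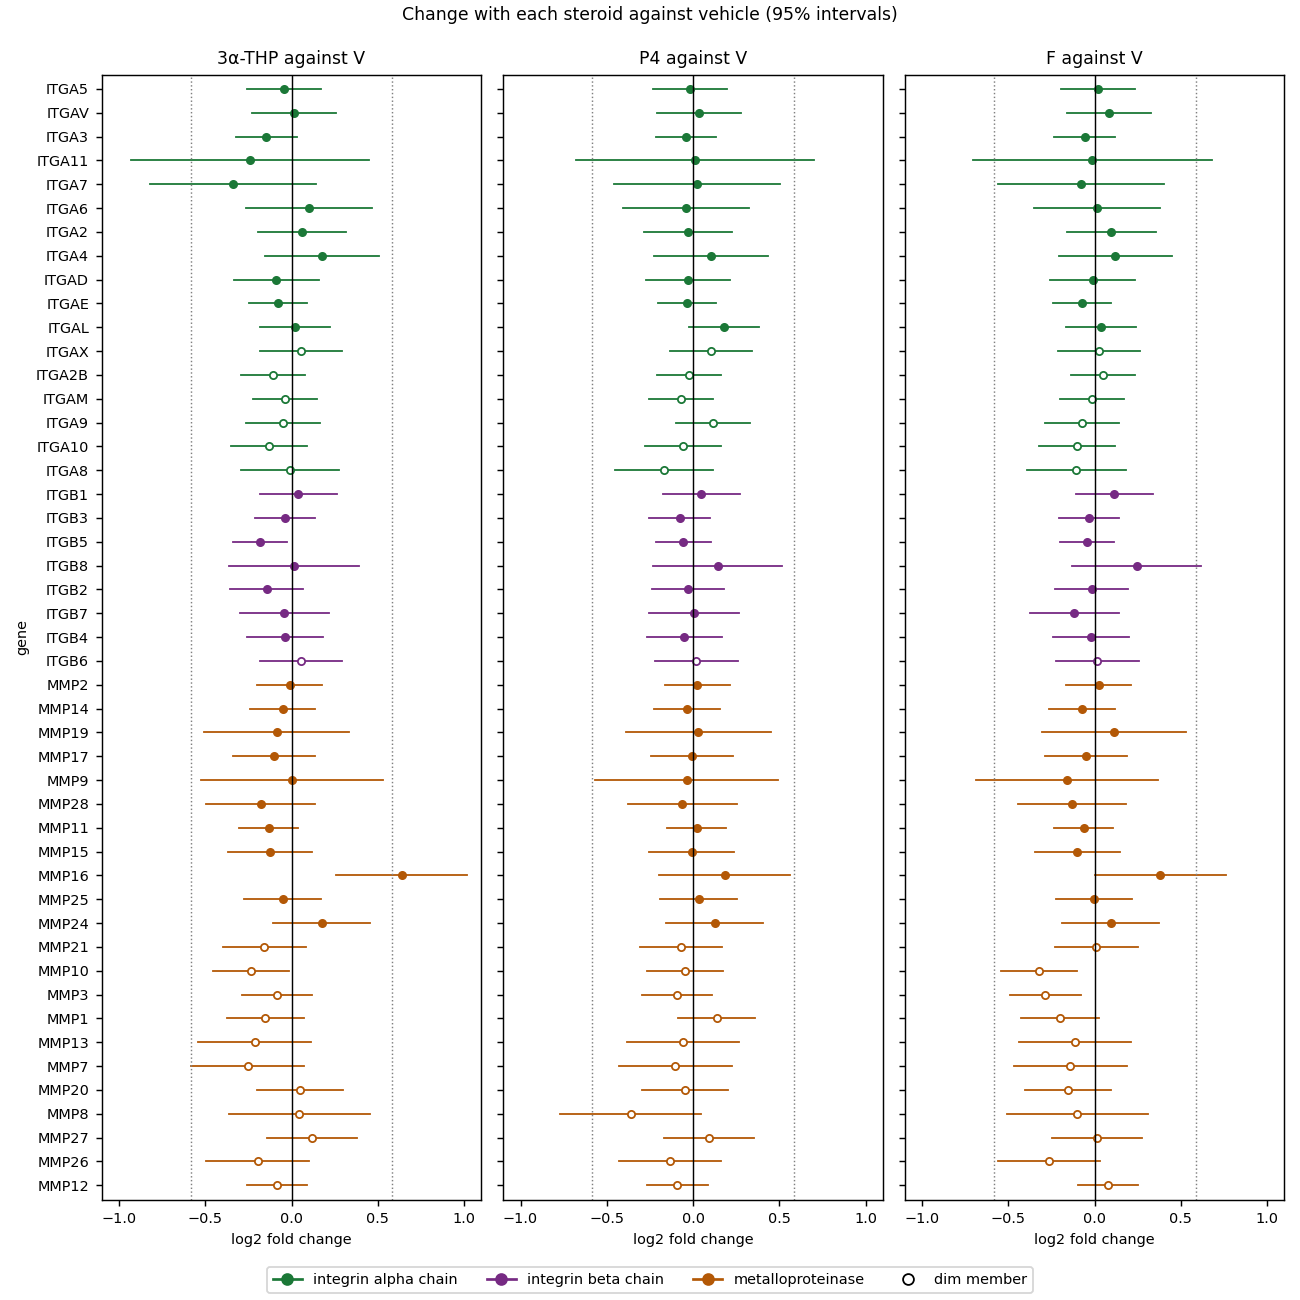
Difference from V on the log2 scale (points) with its 95% interval (lines, limma) for the 47 genes with 3α-THP, P4 and F, n = 3 arrays per treatment and the same V arrays in each panel. Open points are dim genes and dotted lines mark a fold of 1.5, which only the point of MMP16 with 3α-THP lies beyond.

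With P4, the precursor of 3α-THP, 0 of the 47 genes passed the threshold in limma, beside 0.0236% of all tested clusters. No member reached an unadjusted p under 0.05 with limma, beside 1.82% of all clusters, or with the methods' analysis of variance, or with the replicate block (3.8% of all clusters). Differences ran from -0.36 to 0.18, with 19 positive (beside 43.9% of all clusters) and a median of -0.03 beside -0.01 for all. MMP8 (neutrophil collagenase), a dim gene, had levels of 4.08, 4.09 and 3.79 in V, 3.53, 4.39 and 4.18 with 3α-THP, 3.79, 3.55 and 3.54 with P4, and 3.66, 3.91 and 4.09 with F. The 3 P4 arrays lay below the 3 V arrays, by -0.36 (SE 0.188, 95% interval -0.77 to 0.04, limma adjusted p = 1). ITGAL, the alpha chain of the leukocyte receptor LFA-1, had 5.12, 5.45 and 5.38 in V, 5.32, 5.24 and 5.45 with 3α-THP, 5.46, 5.52 and 5.50 with P4, and 5.37, 5.31 and 5.38 with F, with P4 above V by 0.18 (SE 0.0931). These were the 2 members whose P4 and V arrays did not overlap, beside 5.44% of all clusters (1.97% with P4 higher and 3.47% lower). ITGA8 (α8), a dim RGD-binding chain, had 4.04, 3.77 and 4.23 in V, 3.99, 4.16 and 3.85 with 3α-THP, 3.83, 3.69 and 4.02 with P4, and 3.75, 4.02 and 3.96 with F and differed by -0.17 with overlapping arrays. For 45 of the 47 genes the 95% interval lay within a fold of 1.5, with ITGA11 and MMP8 as the others. The 12 members listed with 3α-THP differed by -0.08 to 0.14.

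With F, the inhibitor of 5α-reductase, 0 of the 47 genes passed the threshold in limma, beside 0.396% of all clusters. At an unadjusted p under 0.05 stood 3 members (MMP10, MMP3 and MMP16) with limma, beside 4.69% of all clusters. There were 2 with the methods' analysis of variance, for which the share of all clusters was not counted. With the replicate block there were 4 (8.54% of all clusters), with ITGB8 as the additional one, while 0 passed the adjustment, beside 0.00471% of all clusters. MMP10 showed the smallest p, and its 3 arrays with F, given above, lay below the 3 V arrays by -0.32 (SE 0.102, 95% interval -0.54 to -0.10, limma adjusted p = 0.911). MMP3 (stromelysin-1) had levels of 4.35, 4.35 and 4.64 in V, 4.34, 4.26 and 4.47 with 3α-THP, 4.34, 4.37 and 4.33 with P4, and 4.09, 4.23 and 4.16 with F. With F all 3 arrays lay below V, by -0.28 (SE 0.0945, limma adjusted p = 0.911). Both genes were dim on every array. MMP16 differed by 0.38 (95% interval 0.00 to 0.76), a fold of 1.30, with F replicate 2 within the range of V. This difference turned on single arrays: it was 0.20 without F replicate 3 (limma, unadjusted p = 0.256), 0.30 without V replicate 3 and 0.56 without F replicate 2. Without all arrays of replicate number 2, a choice made after seeing the data, it was 0.665 and passed the threshold. With F, 18 differences were positive, beside 41.8% of all clusters, and the median was -0.02, the same as for all clusters. The arrays did not overlap V for MMP3, MMP10 and MMP14, all lower, beside 9.11% of all clusters, 5.51% lower. The interval lay within a fold of 1.5 for 43 of 47 genes, with ITGA11, ITGB8, MMP9 and MMP16 as the others. The same 12 members as above ranged from -0.16 (MMP9) to 0.24 (ITGB8). F was given at another dose than 3α-THP and P4, so its values stand beside theirs without a comparison, and all 3 contrasts share the V arrays.

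3α-THP and P4 were given at the same dose and time, and they are 1 pair of related steroids: 3α-THP lacks the double bond in the A ring of P4 and carries a hydroxyl where that ring of P4 has its ketone. In this comparison 0 of 47 members passed the threshold, beside 0.25% of all clusters, and 16 differences were positive, beside 44.8%. At an unadjusted p under 0.05 stood 3 members (MMP1, MMP16 and MMP8) with limma, beside 3.96% of all clusters. There were also 3 with the methods' analysis of variance, for which the share of all clusters was not counted. With the replicate block there were 4 (9% of all clusters), with ITGA7 as the additional one, while 0 passed the adjustment with limma. MMP1 (interstitial collagenase), a dim gene, had levels of 4.42, 4.58 and 4.32 in V, 4.09, 4.41 and 4.37 with 3α-THP, 4.63, 4.52 and 4.58 with P4, and 4.33, 4.27 and 4.11 with F. All 3 arrays with 3α-THP lay below all 3 with P4, by -0.29 (SE 0.104, 95% interval -0.51 to -0.06, limma adjusted p = 0.999), while each steroid overlapped V. For MMP16 the arrays with 3α-THP lay above those with P4 by 0.45 (SE 0.175, 95% interval 0.08 to 0.83, limma adjusted p = 0.999), a fold of 1.37. Without P4 replicate 3 the difference was 0.585, just past the threshold, whereas it was 0.36 without 3α-THP replicate 3, 0.37 without P4 replicate 1 and 0.41 without P4 replicate 2, each with an unadjusted p above 0.05. MMP8 differed by 0.41 (95% interval 0.00 to 0.82) with overlapping arrays, by 0.66, past the threshold, without 3α-THP replicate 1, and by 0.23 without 3α-THP replicate 2. MMP11 (stromelysin-3) had 6.48, 6.33 and 6.35 in V, 6.29, 6.17 and 6.30 with 3α-THP, 6.47, 6.44 and 6.31 with P4, and 6.34, 6.35 and 6.29 with F, and 3α-THP lay below P4 by -0.15 (SE 0.0793). The arrays of the pair did not overlap for 6 members, beside 8.22% of all clusters: MMP16 was higher with 3α-THP (3.13% of all clusters were), and ITGAL, ITGB5, MMP1, MMP11 and MMP21 lower (5.1%). For 43 of the 47 members the interval lay within a fold of 1.5, with ITGA7, ITGA11, MMP8 and MMP16 as the others. Those 12 members differed by -0.13 to 0.14.

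**Figure D3:**
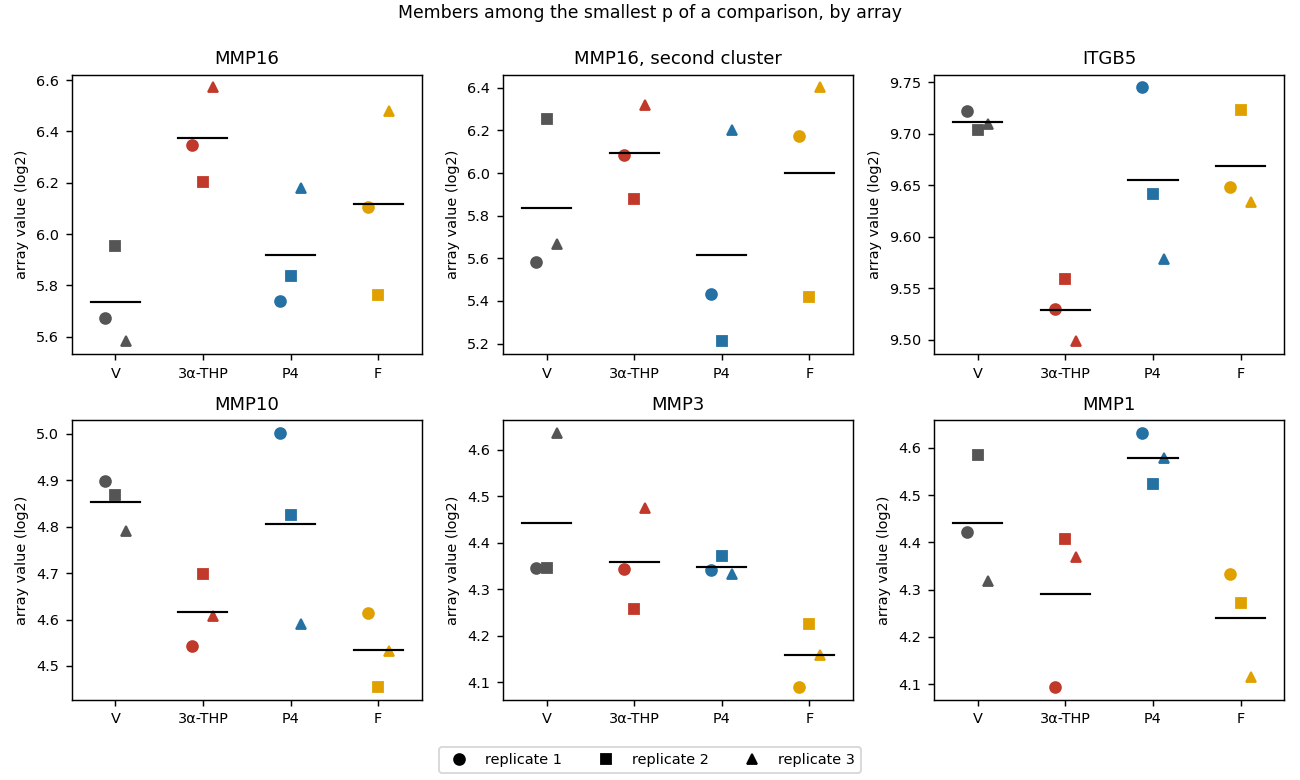
Level (log2 value) on each array of MMP16, its second cluster, ITGB5, MMP10, MMP3 and MMP1, with point shapes for replicate numbers 1 to 3 and horizontal lines for the treatment means (n = 3); each panel has its own axis. The 3 arrays of MMP16 with 3α-THP lie between 6.20 and 6.57 and those of V between 5.58 and 5.95, while the groups of its second cluster overlap.

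Genes that work with integrins and metalloproteinases were counted in 6 lists. Of the activators and adhesion plaque proteins 30 of 34 were measured, and 0 passed the threshold with any steroid. The shares of all clusters past it, which hold for each list, were those given above: 0.679% with 3α-THP, 0.0236% with P4, 0.396% with F and 0.25% between 3α-THP and P4. With 3α-THP 4 of the 30 had positive differences, at a median of -0.07, beside 41.1% positive and -0.03 for all clusters. The smallest p values there belonged to BCAR1 (p130Cas, an adaptor of integrin signalling) at -0.18 and VASP, which promotes actin filament growth, at -0.13. Of 41 matrix ligands 39 were measured, 0 passed and the median was -0.08 with 3α-THP, with COL6A1 at -0.24 and COL6A2 at -0.22, chains of collagen VI. Of the 8 genes listed as metalloproteinase inhibitors 0 passed, with TIMP1 at -0.15 and PCOLCE at -0.33. PCOLCE is better known as an enhancer of procollagen cleavage, so its difference is not that of an inhibitor. Of the proteins that activate or hold metalloproteinases at the surface, 22 of 26 were measured and 0 passed. CD151, a tetraspanin that binds laminin-binding integrins, had the smallest p of these, at -0.36 (SE 0.112, limma adjusted p = 0.512), with all 3 arrays below V. CAV1, the coat protein of caveolae, was next at -0.15. Of the 18 regulators of metalloproteinase transcription 0 passed, with a median of -0.10 and with JUN, a part of AP-1, at -0.31 and RELA, a part of NF-κB, at -0.24.

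The list of proteins that move integrins through endosomes held the 1 gene of these lists that passed the threshold. The lists were chosen with earlier results of these data known, so this call is no evidence about integrin traffic as a set. EEA1, which tethers early endosomes, rose by 1.17 with 3α-THP (SE 0.322, limma adjusted p = 0.424) and by 1.08 with F (adjusted p = 0.911, with arrays that overlapped V). It was higher with 3α-THP than with P4 by 0.84, with arrays that overlapped. The lowest limma adjusted p of the list was 0.999 in that comparison. Of this list 21 of 23 genes were measured, and the other 20 did not pass with any steroid. ARF6, a small GTPase of integrin recycling, differed by -0.23 with 3α-THP. The median of the list was 0.01 with 3α-THP. With P4 0 genes of the 6 lists passed, and with F and between 3α-THP and P4 only EEA1 did.

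Replicate numbers were compared as well, which was added after the data were seen. With the number as a term beside the treatment (limma, F test), 9 of the 47 members differed between replicate numbers at an adjusted p under 0.05, beside 16.1% of all clusters, whereas 0 differed between a steroid and V at an adjusted p under 0.05, with or without that term. They were ITGA2, ITGA7, ITGA11, ITGB6, ITGB8, MMP7, MMP9, MMP19 and MMP28, and the mean of the 4 arrays of replicate 2 was the lowest in all 9. MMP19, a secreted enzyme of basement membrane proteins, had means over 4 arrays of 8.78, 8.44 and 8.99 in replicates 1, 2 and 3 (limma adjusted p = 0.000361). ITGA11 (α11), a receptor chain for fibrillar collagens, had levels of 8.71, 8.02 and 8.56 in V, 8.71, 7.36 and 8.51 with 3α-THP, 8.76, 8.05 and 8.51 with P4, and 8.62, 7.99 and 8.64 with F. Its replicate 2 array was the lowest of every treatment, and the lowest of all was that with 3α-THP (limma adjusted p = 0.000641). For MMP9 the means were 6.90, 6.48 and 7.15 (adjusted p = 0.000994). ITGA7 (α7), a laminin receptor chain, had 7.80, 7.40 and 7.71 in V, 7.68, 6.70 and 7.52 with 3α-THP, 7.86, 7.51 and 7.62 with P4, and 7.80, 7.24 and 7.64 with F, with the same array at the bottom (adjusted p = 0.00539). ITGA7, ITGA11 and MMP9 were also among the members whose intervals reached a fold of 1.5 above. The number took a median of 33.0% of the variance of a member and the treatment 17.9%, beside 28.8% and 20.7% for all tested clusters. For members above the dim limit these medians were 41.5% and 14.2%, and for the dim members 16.8% and 27.4%. Both terms take some share even without an effect, and treatment, with 4 groups, then takes more than replicate number, with 3. These shares therefore do not show that treatment had an effect, in dim members or in the others. Leaving out single arrays gave 6 to 12 members that differed by replicate number, beside 9.27% to 17.8% of all clusters. ITGA7, ITGA11, MMP7, MMP9, MMP19 and MMP28 were among them each time. The labels do not say what the replicate numbers share beyond being biological repeats.

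**Figure D4:**
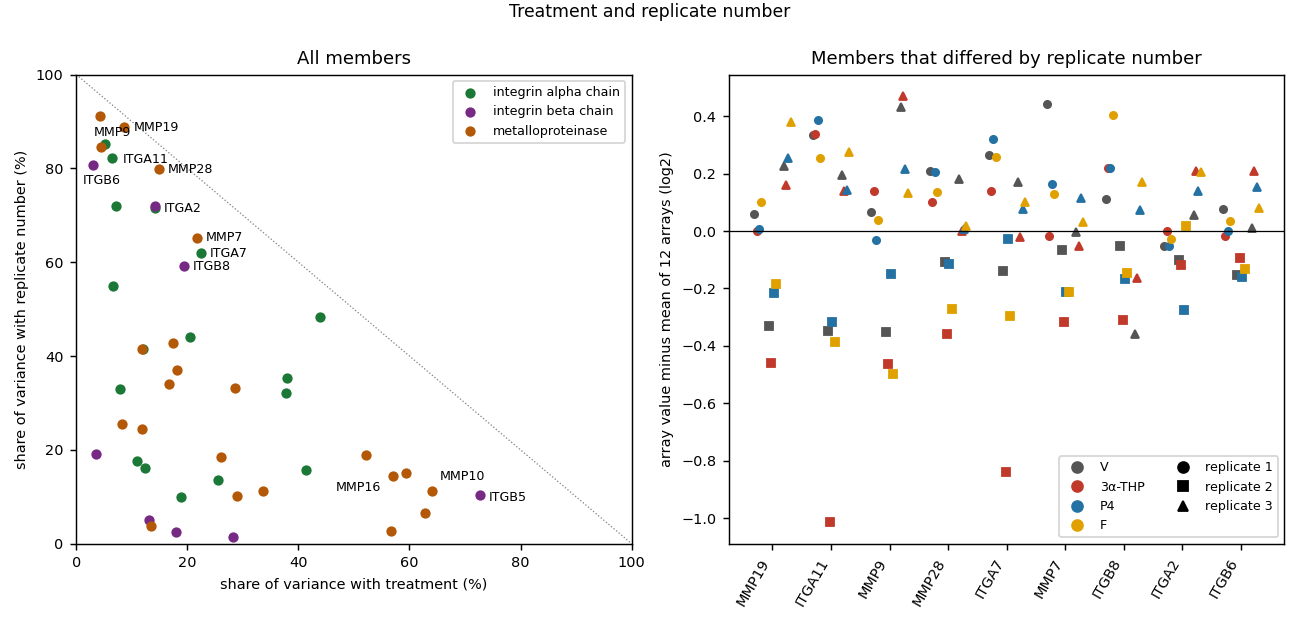
Left, share of each gene's variance over the 12 arrays that goes with treatment (horizontal axis, %) and with replicate number (vertical axis, %), with 1 point per gene. Right, level on each array minus the mean of the 12 arrays (log2) for the 9 genes that differed by replicate number, where the squares of replicate 2 lie below 0 except for ITGA2 with F, and that of ITGA11 with 3α-THP, at a level of 7.36, is farthest from its mean.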

How the data were processed

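Total RNA of U87 cells was hybridised to 12 arrays, 3 per treatment, and the samples were grouped by the treatment in their labels. The deposited log2 values per transcript cluster come from the authors, whose processing notes name Affymetrix Expression Console 1.4, and the deposited log2 table is normalized between arrays, with array medians of 6.35 to 6.40. The methods name quantile normalization for the study's own analysis, and what made the deposited table is not given in the sources used here. Normalization of this kind would remove a shift common to all genes. A linear model of limma 3.58.1 (R 4.3.3) gave each treatment its own mean and all a shared spread, over the 21214 of 33297 clusters annotated with at least 1 gene, and p-values were adjusted by Benjamini-Hochberg over all of them. As threshold the methods' rule was taken, with a fold above 1.5 in either direction and p under 0.05 before adjustment. The fit was tested on simulated data with independent noise on each array. That test leaves out the correlation between arrays of the same replicate number described next, so it says nothing on that point.

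Replicate numbers pair the arrays: deviations from the treatment means correlated at 0.132 to 0.631 for all 18 pairs of arrays with the same number, and at a median of -0.245 for 36 pairs with different numbers. Named genes were members past the threshold, the 4 members with the smallest p of each comparison, and a list of 13 well-known members. In each of the 6 lists of partner genes they were the genes called and the pair with the smallest p under 3α-THP. The members, lists and tests were chosen with earlier results of these data known. Alternatives changed the replicate term, the arrays, the test, the variance prior, array weights, the normalization and the clusters used. Clusters annotated with several genes were not members. Arrays give no read depth, and 3 arrays per treatment limit the precision.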

Additional observations from a re-analysis of the deposited data

How the results depend on the processing

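The threshold calls of the members rest on few arrays. With 3α-THP the number of members past the threshold was 0 to 1 when single arrays were left out, and 0 with the mean of the clusters of a gene, since MMP16 then differed by 0.45. With P4 it was 0 in every alternative. With F it was 1 without the arrays of replicate number 2 (MMP16) and 0 otherwise. Between 3α-THP and P4 it was 0 to 1 when single arrays were left out (MMP8 or MMP16). Members that differed by replicate number numbered 6 to 12 when single arrays were left out, beside 9.27% to 17.8% of all clusters. They numbered 13 with array weights (18% of all clusters) and 13 with the trend and robust variance prior (20.3%). There were 10 with quantile normalization (17.1%), 9 with 1 cluster per gene (16.1%) and 11 without dim clusters (26.9% of those left). Analysis of variance gave 9 (9.29%) and kept 5 of the 9 named above. It dropped ITGA2, ITGA7, ITGB6 and ITGB8 and added ITGA3, ITGA5, ITGB1 and MMP2. With the replicate block the change of MMP16 with 3α-THP kept its call (limma adjusted p = 0.105), and the block changed no other call of a member at the threshold. No named member reversed its direction after a call, and of 455 recomputed values per comparison 449 with 3α-THP, 455 with P4, 452 with F and 452 between 3α-THP and P4 kept their side of the threshold and stayed within the replicate spread. These totals say little about how firm a call is. Members other than MMP16 were not called in the main fit, and many differences could not move. That of MMP16 between 3α-THP and V stayed 0.64 when an array of P4 or F was left out. Its call was lost without V replicate 3, without 3α-THP replicate 3 and with the mean of its clusters. The counts over all clusters moved more. With 3α-THP 144 clusters became 104 to 240 without single arrays and 219 without replicate number 2. With P4 5 became 4 to 19, 2 with analysis of variance, 17 with array weights, 1 without dim clusters and 40 without replicate number 2. With F 84 became 44 to 167, 162 with array weights and 220 without replicate number 2. Between 3α-THP and P4 53 became 25 to 135, and 23 with analysis of variance. The cause of these moves was not tested. Differences of dim genes lie close to the background signal, which limits what they can show.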

Other observations

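Transcript clusters that name a family member together with another gene were not counted. The cluster of ITGA1, which shares it with PELO, had levels of 7.53, 7.67 and 7.88 in V and 7.83, 7.58 and 8.14 with 3α-THP, with a difference of 0.15 (SE 0.162, limma adjusted p = 0.900). ITGA1 is the alpha chain of a collagen receptor, and its value cannot be told apart from that of PELO. The cluster shared by MMP23A and MMP23B differed by 0.05 with 3α-THP, -0.01 with P4 and 0.01 with F, and all 4 treatments overlapped.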
